A study of Mus musculus with 58 samples.

Results

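Voltage-gated calcium channels are built around a pore protein encoded by a Cacna1 gene, and most of them carry 2 kinds of auxiliary subunit. The data described here are the transcripts of the 8 mouse genes for the beta subunits (Cacnb1, Cacnb2, Cacnb3 and Cacnb4) and the alpha2delta subunits (Cacna2d1, Cacna2d2, Cacna2d3 and Cacna2d4). The genes were taken by name, not by their values, and all 8 were among the 25648 genes of the count table. RNA was sequenced from single parvalbumin (PV) cells of the ventral subiculum, the hippocampal output region, of PV-Cre::Ai9 mice, in which Cre made under the parvalbumin gene switches on a fluorescent reporter. Cytosol was taken from 1 cell at a time through a patch pipette, and each cell gave 1 library. Of 58 cells, 54 carried the quality label Pass, 27 male and 27 female, and 4 carried the label Fail. The male cells were from mice 35 days old (14 Pass cells) or 36 days old (13), and the female cells from mice 40 days old (17) or 42 days old (10). All mice had the same genotype, no treatment is named, and the reporter also keeps any cell that expressed parvalbumin earlier.

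The beta subunit is a cytosolic protein that binds the loop between the first and second repeat of the pore protein, at a stretch called the alpha interaction domain, and it promotes surface delivery of the channel and sets its gating. The alpha2delta subunit is an extracellular protein, anchored to the membrane, that raises the number of channels at the surface and at release sites. Fast-spiking PV interneurons are known for release driven by P/Q-type channels, whose pore is encoded by Cacna1a. T-type pores, encoded by Cacna1g, Cacna1h and Cacna1i, are known to lack the alpha interaction domain.

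The sequence to which the beta subunits bind was read from GENCODE vM21 transcripts on GRCm38 for the pore genes, and is shown because it separates the pores that take a beta subunit from those that do not. The domain was matched in 45 of 52 coding transcripts of 7 pore genes (Cacna1a, Cacna1b, Cacna1c, Cacna1d, Cacna1e, Cacna1f and Cacna1s) and in 0 of 20 coding transcripts of the 3 T-type genes. All of the stretches shown are coding exon sequence of 54 bases, and the capitals mark the codons of the residues that define the domain. In Cacna1a (chr8:84536125-84536403, plus strand, exons 8 and 9) and Cacna1b (chr2:24719100-24719992, minus strand, exons 8 and 9), whose pores carry P/Q-type and N-type currents, the stretch was identical at 83.3% of bases. The stretch of Cacna1e, the R-type pore, lay at chr1:154488837-154493353 on the minus strand, in exons 8 and 9, and that of Cacna1d, an L-type pore, at chr14:30142600-30142653 on the minus strand, in exon 9.
Cacna1a: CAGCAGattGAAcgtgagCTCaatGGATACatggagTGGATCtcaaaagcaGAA
Cacna1b: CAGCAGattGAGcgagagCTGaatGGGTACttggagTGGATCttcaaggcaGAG
Cacna1e: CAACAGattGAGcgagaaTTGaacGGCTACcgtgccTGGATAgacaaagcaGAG
Cacna1d: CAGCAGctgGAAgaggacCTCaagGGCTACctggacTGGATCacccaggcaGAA

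A second stretch is shown because it divides the alpha2delta genes. Gabapentin and pregabalin bind the proteins of Cacna2d1 and Cacna2d2 but not those of Cacna2d3 and Cacna2d4, and a run of arginines is needed for that binding. The run, followed by proline, tryptophan and tyrosine, was matched in 7 of 8 coding transcripts of Cacna2d1 and in 6 of 6 of Cacna2d2. In Cacna2d3 the matching place held 2 arginine codons in place of 3, and no such place was matched in Cacna2d4. The coding stretches of 45 bases below have the arginine codons in capitals. They lie at chr5:16264302-16266705 (plus strand, exons 8 and 9) for Cacna2d1, at chr9:107512335-107513072 (plus strand, exons 8 and 9) for Cacna2d2 and at chr14:29347013-29347147 (minus strand, exons 7 and 8) for Cacna2d3.
Cacna2d1: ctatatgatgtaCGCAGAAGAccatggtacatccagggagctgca
Cacna2d2: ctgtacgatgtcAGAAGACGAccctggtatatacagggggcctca
Cacna2d3: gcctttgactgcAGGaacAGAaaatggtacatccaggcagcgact

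Total counts per Pass cell ran from 2.05 to 52.3 M (median 11.5 M), and 11591 to 14351 genes had a count. The animals (4 male and 3 female) of the single cells are not labelled, so the Pass cells were also summed into 4 pools by sex and age, which hold different animals if each animal was used at 1 age. All female pools were older than all male pools, so sex and age cannot be told apart. Each of the 54 cells expressed Gad1, which makes GABA, at 1337 to 6751 CPM (counts per 1 M of the cell's total; median 3560). Pvalb itself ran from 1.18 to 788 CPM (median 86.9), and in 14 of 54 cells Sst, a marker of somatostatin interneurons, was at or above Pvalb. Slc17a7, the glutamate transporter of excitatory neurons, had a count in all 54 cells, with a median of 9.07 CPM and its 2 highest levels in male cells 29 (428 CPM) and 15 (409 CPM). Female cell 3 was the most deeply sequenced cell.

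Cacnb4 was the one auxiliary subunit gene above 10 CPM in every cell. Its lowest cell held 28.0 CPM (male cell 2), the median was 191 CPM and the highest was 380 CPM (female cell 22). It passed 100 CPM in 47 of 54 cells, and its median lay above that of 96.4% of all genes in the table. Its coefficient of variation over cells, the SD divided by the mean, was 0.431, the smallest of the 8 genes. Among the 1963 genes with a similar mean it was ordinary, above that of 45.3% of them. Cacnb4 encodes the beta subunit that is mutated in the lethargic mouse. The gene lies at chr2:52428320-52676831 on the minus strand, and its exons overlap those of A430018G15Rik on the other strand, whose reads cannot be told apart from it because the strand setting of the counting is not given.

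The other beta genes were present in nearly all cells at lower levels. Cacnb2, the main beta subunit of heart muscle, ran from 1.32 to 113 CPM (median 34.7) and passed 10 CPM in 49 of 54 cells. Cacnb1, known best for the skeletal muscle channel, ran from 0 to 107 CPM (median 18.1) and passed 10 CPM in 37 cells. Cacnb3, a beta subunit found across the brain and smooth muscle, ran from 0 to 126 CPM (median 12) and passed 10 CPM in 29 cells. So the number of cells above 10 CPM went down in the order Cacnb4, Cacnb2, Cacnb1, Cacnb3, an order of detection and not of level between genes. The spread went up in the same order, with coefficients of variation of 0.659, 0.989 and 1.22 for Cacnb2, Cacnb1 and Cacnb3. Set against genes with a similar mean, the order differed. The coefficient of Cacnb2 was above that of 22.97% of such genes, against 45.3% for Cacnb4, 48.7% for Cacnb1 and 72.4% for Cacnb3. By this measure Cacnb2, and not Cacnb4, was the lowest of the beta genes. Cacnb1 and Cacnb3 each had a count in 53 of 54 cells (98.1%, exact Clopper-Pearson 95% interval 90.1% to 100.0%). That interval treats the cells as independent, though several may come from 1 animal. Exons of Cacnb1 overlap Gm11629 and those of Cacnb2 overlap Gm10848, Gm10849 and Gm13269, so their counts share the strand limit.

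**Figure D1:**
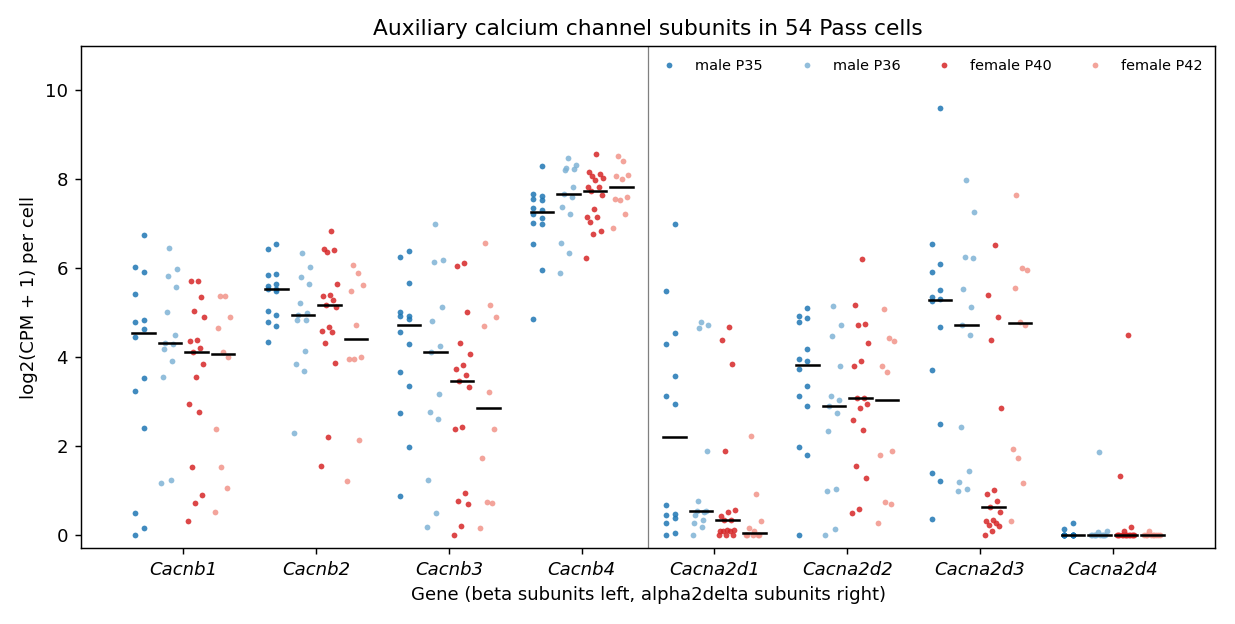
Level of each of the 8 genes in each of the 54 Pass cells, as log2(CPM + 1) on the vertical axis, with cells coloured by pool (P, age in days) and a black line at the median of the pool. Cacnb4 sits high with a narrow spread in all 4 pools, while Cacna2d1 and Cacna2d3 run from 0 or near 0 to high values within a pool. The exception is Cacna2d1 in female P42, where the highest cell held 3.66 CPM.

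Cacna2d3 and Cacna2d1 were far more uneven between cells than the beta genes, while Cacna2d2 was not. Cacna2d3 levels ran from 0 to 779 CPM (median 16), and 28 of 54 cells passed 10 CPM. Male cell 2 alone held 27.1% of all its counts, and its coefficient of variation, 2.43, was above that of 99.4% of the 4802 genes with a similar mean. Male cell 2 was also the cell with the lowest Cacnb4. Cacna2d2, the subunit mutated in the ducky mouse, ran from 0 to 72.4 CPM (median 7.58, 24 cells above 10 CPM), with its highest level in female cell 4. Its coefficient of variation, 1.06, lay between those of Cacnb1 and Cacnb3 and above that of 25.1% of genes with a similar mean. Exons of Cacna2d2 overlap Gm17141 on the other strand.

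Cacna2d1, the best known gabapentin target, was near 0 in most cells and high in a few. It had a count in 44 of 54 cells, but its median was 0.354 CPM and 38 cells lay under 1 CPM. Another 5 cells lay between 1 and 10 CPM and 11 above 10 CPM, up to 127 CPM in male cell 7. Cacna2d4, known for its role in photoreceptors, had a count in 10 of 54 cells (18.5%, interval 9.25% to 31.4%). Female cell 29 held 87.2% of its 390 counts, at 21.7 CPM, and the gene was above 10 CPM in that cell only.

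To compare genes, CPM was divided by the length of all annotated exons in kilobases (CPM per kb), and the order was read from the sums of the 4 pools. In the order male 35 days, male 36 days, female 40 days and female 42 days, the level of Cacnb4 was 16.6, 21.4, 24.0 and 25.3 CPM per kb (mean 21.8 ± 3.87, SD, n = 4 pools). Cacnb3 followed at 9.35, 6.60, 3.65 and 5.03 (6.16 ± 2.45), then Cacnb1 at 6.80, 5.63, 3.28 and 3.53 (4.81 ± 1.70). On this length, the lowest pool of Cacnb4 was above the highest pool of every other beta gene. Cacnb2 was at 3.68, 2.32, 3.83 and 1.94 CPM per kb (2.94 ± 0.949), so Cacnb3, Cacnb1 and Cacnb2 overlapped between pools.

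The neighbours in this order were compared by their log2 ratio in each pool, with an exact two-sided sign-flip permutation test whose smallest possible p with 4 pools is 0.125, so no order can be called. Cacnb4 exceeded Cacnb3 by a mean log2 ratio of 1.90 ± 0.83 (SD, n = 4 pools; exact p = 0.125), in 4 of 4 pools and in 51 of 54 cells. Cacnb3 exceeded Cacnb1 by 0.34 ± 0.17 (exact p = 0.125), in 4 of 4 pools but in 23 of 54 cells. The lead of Cacnb3 over Cacnb1 was thus seen in sums and not in most cells, and it turned to -0.34 with the median over cells and to -0.06 with the mean length of coding transcripts. Cacnb1 exceeded Cacnb2 by 0.70 ± 0.64 (exact p = 0.25), in 3 of 4 pools. That step depended on gene length and turned to -0.28 with the longest transcript and to -1.12 with the mean length of coding transcripts, because the annotated exons of Cacnb2 sum to 13228 bases and its coding transcripts average 1822 bases. The order of Cacnb1, Cacnb2 and Cacnb3 was therefore not settled by these data.

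Among the alpha2delta genes, Cacna2d3 was highest in 3 of 4 pools. Its levels were 8.65, 4.64, 0.658 and 6.35 CPM per kb (mean 5.07 ± 3.37, SD, n = 4 pools), and those of Cacna2d2 were 2.09, 0.948, 1.71 and 1.33 (1.52 ± 0.491). The exception was the female pool of 40 days, in which Cacna2d2 was above Cacna2d3. The log2 ratio of Cacna2d3 over Cacna2d2 was 1.30 ± 1.79 (exact sign-flip p = 0.25), with the higher level in 28 of 54 cells, and 2.20 without the female pool of 40 days. Both the ratio and the number of cells rest on exon length, since coding transcripts of Cacna2d3 average 2306.5 bases and those of Cacna2d2 5186.8. Cacna2d1 was lower still, at 0.765, 0.731, 0.214 and 0.0328 CPM per kb, under Cacna2d2 in 4 of 4 pools and in 43 of 54 cells (log2 ratio 2.54 ± 2.16, exact p = 0.125). Its lowest value, in the female pool of 42 days, rests on 50 counts. Cacna2d4 had a mean of 0.0461 CPM per kb, with 364 of its 390 counts in the female pool of 40 days.

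On the same scale the pore genes lay below Cacnb4. Cacna1a had 3.37 CPM per kb, Cacna1b 2.84, Cacna1g 1.41, Cacna1d 1.21 and Cacna1i 1.09 (means of 4 pools). Cacna1e had 0.620, Cacna1c 0.580 and Cacna1h 0.311, and Cacna1s (0.0264) and Cacna1f (0.0201) were near 0. The highest pool of Cacna1a, 4.65 CPM per kb, was below the lowest pool of Cacnb4. Cacna1b was above Cacna1a in the male pool of 35 days, at 4.53 against 3.46 CPM per kb. Within single cells Cacna1a was the highest pore gene in 21 of 54 and Cacna1b in 15. Levels per exon length rest on annotated exons, of which the cells may use only a part. Coding transcripts average 7672.7 bases for Cacna1a and 4710.1 for Cacna1b, and the order of the pore genes on that length is not given here.

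Within each cell, Cacnb4 was the highest beta gene per length in 47 of 54 cells. Cacnb3 led in 3 cells (male cells 6 and 15 and female cell 21), Cacnb1 in 2 (male cells 20 and 23) and Cacnb2 in 2 (male cell 2 and female cell 2). Cacnb4 held over 50% of the summed beta level in 38 of those 47 cells. By pool the share of Cacnb4 was 45.5% and 59.6% in the male pools and 69.1% and 70.7% in the female pools (mean 61.2% ± 11.6, SD, n = 4 pools). Cacnb3 held 17.1%, Cacnb1 13.4% and Cacnb2 8.25% on average. With the mean length of coding transcripts the mean share of Cacnb4 was 38.1%, and it led in 55.6% of cells (30 of 54) in place of 87.0%, with Cacnb2 leading in 17. On that length Cacnb2 had 26.7, 16.9, 27.8 and 14.1 CPM per kb against 18.5, 23.9, 26.8 and 28.3 for Cacnb4, above it in 2 of 4 pools (male 35 days and female 40 days). Its lead over Cacnb2 thus rests on the length used, while it stayed above Cacnb1 and Cacnb3 in 4 of 4 pools.

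On the length of all annotated exons, the alpha2delta family had no single leading gene. Cacna2d3 was highest per length in 26 of 54 cells, Cacna2d2 in 25 and Cacna2d1 in 3 (male cells 7 and 16 and female cell 3). The leading gene held over 50% of the summed alpha2delta level in 26 of the 26 cells led by Cacna2d3, in 22 of the 25 led by Cacna2d2 and in 3 of the 3 led by Cacna2d1. With mainly 2 genes to share the level, over 50% is easily reached, and it does not mean that a cell held 1 gene only. A share over 90% was reached in 6 of the 26, 9 of the 25 and 2 of the 3. The 54 cells together split almost evenly between Cacna2d3 and Cacna2d2 on this length. That even split rested on the female pool of 40 days, in which Cacna2d3 led in 4 cells and Cacna2d2 in 12. Without that pool Cacna2d3 led in 59.5% of cells and Cacna2d2 in 35.1%, and without male cells 15 and 29 they led in 46.2% and 48.1%. The split also depends on the length used. Coding transcripts of Cacna2d3 average 2306.5 bases against 8720 for all its exons, and those of Cacna2d2 average 5186.8 against 7947. The mean coding length therefore raises Cacna2d3 more than Cacna2d2, and the leading cells on that length are not given here. By pool, on the length of all exons, Cacna2d3 held 75.2%, 73.3%, 23.9% and 82.3% of the alpha2delta level. Cacna2d2 held 18.2%, 15%, 62.2% and 17.3%, in the order above. The female pool of 40 days stood apart from the other 3, and the mean share of Cacna2d2 was 28.1% with it and 16.8% without it.

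**Figure D2:**
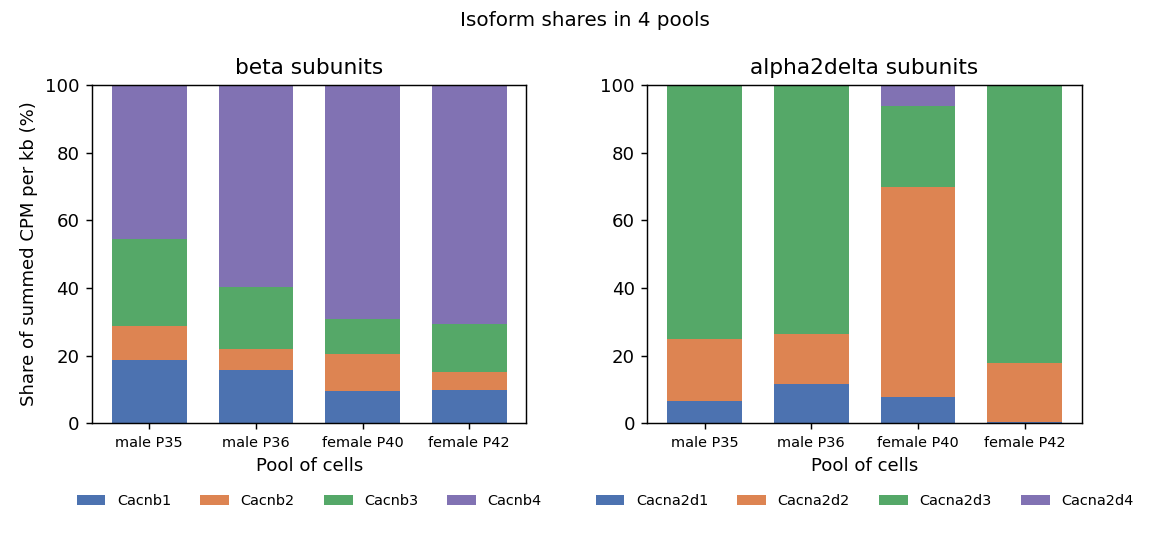
Share of each gene in the summed CPM per kb of its family (vertical axis, %) in each of the 4 pools of cells, beta genes left and alpha2delta genes right. Cacnb4 takes 45.5% to 70.7% of the beta level, and Cacna2d3 takes most of the alpha2delta level in all pools except female P40, where Cacna2d2 holds 62.2%.

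On the length of all annotated exons, the summed level of the beta genes was steadier than that of the alpha2delta genes. The pools held 36.4, 36.0, 34.8 and 35.8 CPM per kb of all beta genes together, against 11.5, 6.34, 2.75 and 7.71 of all alpha2delta genes. The closeness of the beta sums is shown for this length only. On the mean length of coding transcripts Cacnb2 ran from 14.1 to 27.8 CPM per kb between pools, and the family sums on that length are not given here. Over single cells the beta sum ran from 7.15 to 71.3 CPM per kb, a 9.97-fold range, and the alpha2delta sum from 0.171 to 90.5, a 530-fold range. The highest alpha2delta sum was that of male cell 2, the cell with the highest Cacna2d3. The sum over the 10 pore genes ran from 1.45 to 32.7, a 22.6-fold range. Spearman's rho between the beta and alpha2delta sums was 0.160 over 54 cells, a weak value.

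With 10 CPM as the limit, which is not corrected for gene length, cells usually held several beta genes and fewer alpha2delta genes. At that limit 21 cells held all 4 beta genes, 21 held 3, 10 held 2 and 2 held 1. Cacnb1, Cacnb2 and Cacnb4 without Cacnb3 were the most frequent combination of 3, in 15 cells. For alpha2delta, 20 cells held 2 genes, 21 held 1, 12 held none and 1 held 3. Cacna2d2 alone was found in 11 cells (3 male and 8 female), Cacna2d2 with Cacna2d3 in 11 (8 male and 3 female), Cacna2d3 alone in 8 and Cacna2d1 with Cacna2d3 in 7. Of the 8 female cells with Cacna2d2 alone, 6 were from the pool of 40 days, which had 0 cells with both genes, while the pool of 42 days had 2 cells with Cacna2d2 alone and 3 with both. At the lower limit of 1 CPM, 12 cells held 3 alpha2delta genes, 27 held 2, 14 held 1 and 1 held none, and 40 cells held all 4 beta genes.

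Co-expression with the pore genes was weak for most pairs. Over 54 cells, Spearman's rho of CPM ran from -0.217 to 0.481 across 56 pairs of 7 auxiliary and 8 pore genes (median 0.054), leaving out Cacna2d4, Cacna1f and Cacna1s. These values are descriptions, because cells share animals, harvest and depth. In 4 pairs rho was at least 0.3 in size, all positive: Cacna2d2 with Cacna1i (0.481), Cacna2d1 with Cacna1e (0.446), Cacnb3 with Cacna1e (0.381) and Cacna2d1 with Cacna1h (0.326). Cacnb4 and Cacna1a were the beta and pore genes with the highest mean over pools on the length of all annotated exons. This pair had a rho of -0.183, and 47 of 54 cells held at least 10 CPM of both. With the normalized values that the authors deposited, which keep the differences in depth, rho of that pair was 0.459.

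Cacna2d2 with Cacna1i, a T-type pore gene, was positive in every pool. Spearman's rho was 0.459 and 0.451 in the male pools and 0.492 and 0.673 in the female pools, and 15 cells held at least 10 CPM of both. It was 0.452 after all cells were thinned to the same total and 0.466 without the 14 cells in which Sst was at or above Pvalb. Both genes ran weakly with Gad1 (rho 0.323 for Cacna2d2 and 0.291 for Cacna1i), whose part in the relation was not tested.

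Cacna2d1 with Cacna1e, the R-type pore gene, was related in the male pools. Spearman's rho was 0.741 and 0.731 in the male pools and -0.0393 and -0.00647 in the female pools, and the difference between the sexes was not tested. Of 54 cells, 8 held at least 10 CPM of both. The value over all cells was 0.201 without the male pool of 35 days, 0.275 without the cells in which Sst was at or above Pvalb and 0.385 without male cells 15 and 29. Slc17a7 moved with both genes, with a rho of 0.571 for Cacna2d1 and 0.483 for Cacna1e (0.528 and 0.421 without those 2 cells). Male cells 7, 15 and 29 held 398, 409 and 428 CPM of Slc17a7 and 155, 157 and 211 CPM of Cacna1e. Male cell 7, which was kept, had the highest sum of 8 excitatory markers (1313 CPM) and the highest Cacna2d1 (127 CPM). Leaving out male cells 15 and 29 thus does not remove the excitatory RNA. The part of excitatory RNA in this relation was not tested.

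**Figure D3:**
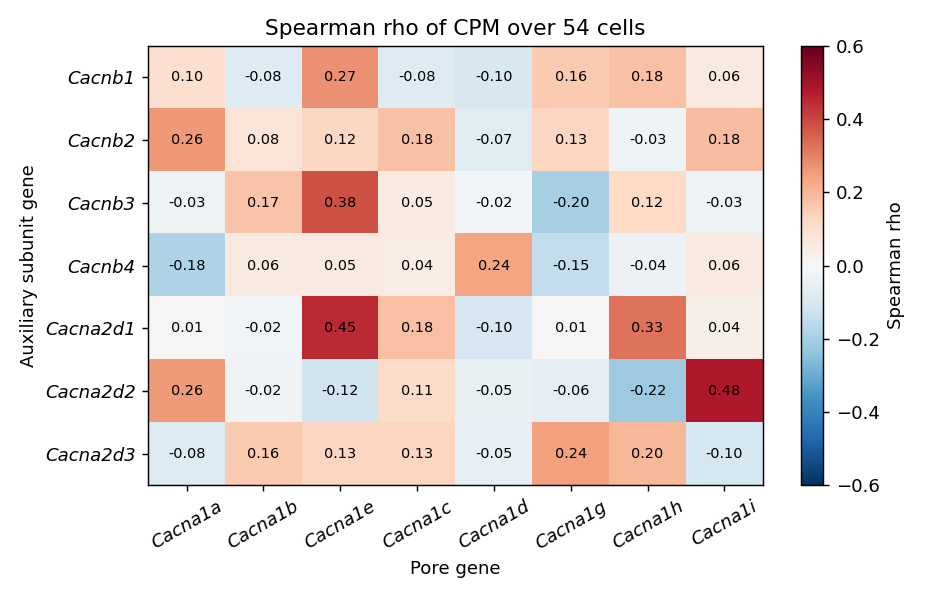
Spearman's rho of CPM over 54 Pass cells between 7 auxiliary subunit genes (rows) and 8 pore genes (columns), printed in each field and coloured from blue (negative) to red (positive). Most fields are pale, and the highest value, 0.481, is that of Cacna2d2 with Cacna1i.

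**Figure D4:**
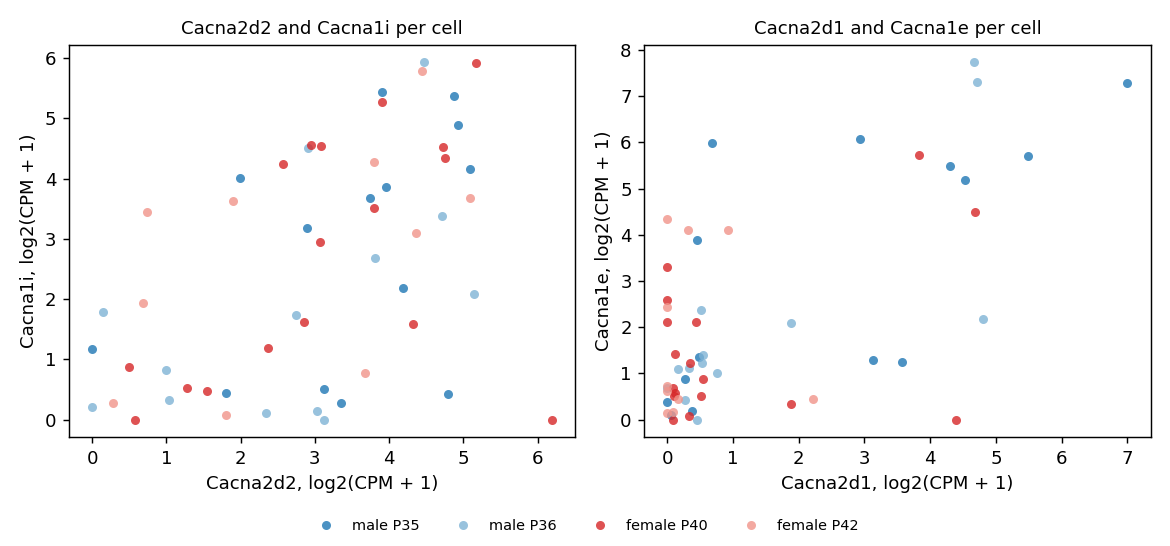
Levels in single cells of Cacna2d2 and Cacna1i (left) and of Cacna2d1 and Cacna1e (right), each axis as log2(CPM + 1), 1 point per cell coloured by pool. The left pair trends upward in all pools, while the cells high in both genes on the right are mostly male.

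The auxiliary genes themselves were also weakly related. Over 21 pairs rho ran from -0.233 to 0.359, and 2 pairs reached 0.3, Cacnb1 with Cacna2d1 (0.359) and Cacnb1 with Cacnb3 (0.326). Cacna2d1 and Cacna2d2 had the lowest value, -0.233, and were both above 10 CPM in 2 cells. Cacnb1 and Cacnb3 also ran with markers of excitatory neurons and against Gad1. For Cacnb1 rho was 0.493 with Slc17a7, 0.366 with the sum of 8 excitatory markers and -0.347 with Gad1. For Cacnb3 it was 0.366 with Slc17a7, 0.568 with that sum and -0.407 with Gad1, and 0.386 with the sum of astrocyte markers. Without male cells 15 and 29, rho of Cacnb1 was 0.435 with Slc17a7 and -0.276 with Gad1. That of Cacnb3 was 0.526 with the excitatory sum and -0.349 with Gad1. The summed excitatory markers ran from 24.9 to 1313 CPM in male cells and from 36.2 to 662 CPM in female cells, 3 of 8 had a median above 1 CPM, and Tbr1 was among those at 0 in most cells. Cacnb4 showed no such relation, with a rho of -0.114 with Slc17a7 and 0.000724 with Gad1. Cacna2d3 ran against the sum of the 8 PV interneuron markers (rho -0.463). That rho was -0.644 and -0.566 in the male pools, -0.441 in the female pool of 40 days and 0.0182 in that of 42 days. Gad1, which is not particular to PV cells, had a median of 3560 CPM against 5883 CPM for the sum. For Cacna2d3, rho was -0.375 with Gad1, -0.241 with Pvalb and 0.369 with the sum of markers of other interneurons. The part of these markers in the levels was not tested.

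The genes most like each auxiliary gene over the 54 cells were sought among 10134 genes with at least 1 CPM in 27 cells or more, for the 5 auxiliary genes with a median of at least 10 CPM. Cacnb4 was followed most closely by Tbc1d30 (rho 0.469), Bet1l (0.457) and Arhgap21 (0.452). For Cacnb1 these were Synpo (0.647), Dynll1 (0.645) and Dcn (0.632), and for Cacnb3 they were Bcl11a (0.609), Cadps2 (0.562) and Atp1b2 (0.557). Cacnb2 had Eml5 (0.540), Ep300 (0.518) and Pip5k1c (0.496), and Cacna2d3 had Acta1 (0.488), Uhrf1bp1 (0.484) and Dnah17 (0.476). The closest values of Cacnb4 and Cacna2d3 were thus lower than those of Cacnb1 and Cacnb3, and all are the highest of many.

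Most relations of the auxiliary genes with the membrane values recorded from the same cells were weak, and the largest was that of Cacnb4. Across 7 genes and 3 labels (vrest, rm and cm, whose units are not given), the relation of Cacnb4 with vrest was the largest of 21, with a rho of 0.381 over 49 cells (0.406 in 27 male and 0.267 in 22 female cells). The next largest was 0.233, for Cacnb2 with cm. For comparison, rho between rm and cm themselves was -0.798. No p-value is given, since several cells may come from 1 animal.

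The last comparison was of female with male pools. It was made with edgeR's quasi-likelihood test on pool sums over 14933 genes, with Benjamini-Hochberg adjustment, and 2 genes were called at an adjusted p under 0.05, which is 0.0134% of those tested. None of the 8 auxiliary genes was among them. At an unadjusted p under 0.05, 823 genes (5.51%, with 2.65% higher and 2.86% lower in female pools) passed and 0 of the 8 did. DESeq2 called 186 of 14064 genes (1.32%), also without an auxiliary gene, though it gave Cacna2d4 no adjusted p. The pools of the sexes did not overlap for 4 of the 8 (Cacnb1, Cacnb3, Cacnb4 and Cacna2d1), against 33.9% of all genes. Of the 8 log2 differences, 6 were below 0 (lower in female pools), with a median of -0.47, against 49.5% of all genes and a median of 0.00. With 2 pools per sex, the p-values measure only the spread between these pools.

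Cacnb4 was the single beta gene with higher values in both female pools. On edgeR's TMM scale it had 147 and 197 CPM (male) against 214 and 227 CPM (female), a log2 difference of 0.36 ± 0.21 (SE; edgeR adjusted p = 0.975). Cacnb1 was at 30.4 and 26.1 CPM against 14.7 and 16 CPM in the same order (log2 difference -0.88 ± 0.43, adjusted p = 0.931). Cacnb3 was at 37.0 and 27.1 CPM against 14.5 and 20.1 CPM (-0.89 ± 0.43, adjusted p = 0.931). None of these differences held against the spread between pools over all genes. Cacnb2 was at 48.0 and 31.5 CPM against 50.2 and 25.7 CPM (-0.07 ± 0.43), and its direction turned to 0.27 without the male pool of 35 days and to 0.35 without the female pool of 42 days.

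The shift in beta composition followed from these values. The share of Cacnb4 in the beta level was higher in the female pools by 17.3 percentage points, without overlap (exact two-sided permutation p = 0.333, the smallest that 4 pools allow). For Cacnb3 the difference in share was -9.75 points and for Cacnb1 it was -7.53 points, also without overlap and with the same p, and the 3 shares are not independent because they sum with Cacnb2 to the whole.

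Cacna2d1 had the largest difference toward the male pools. Its male pools held 9.37 and 9.30 CPM against 2.64 and 0.407 CPM in those of females (log2 difference -2.61 ± 1.19, SE, edgeR adjusted p = 0.917). Single cells held much of these sums. Male cell 16 held 24.9% of the male counts, and female cell 22 held 56.7% of the female counts. The difference was -4.51 without the female pool of 40 days and -1.81 without the female pool of 42 days, and not called in either fit. Cacna2d3 was at 74.5 and 41.5 CPM against 5.69 and 55.3 CPM (-0.93 ± 0.86, adjusted p = 0.984). Without male cell 2 its difference was -0.30, without the female pool of 40 days it was -0.06 and without the female pool of 42 days it was -3.34 (adjusted p = 0.0927, the lowest of any auxiliary gene; over its 22 fits the adjusted p ran from 0.0927 to 0.9999). The median of Cacna2d3 over cells was 38.1 and 25.2 CPM in the male pools, 0.536 CPM in the female pool of 40 days and 26.1 CPM in that of 42 days, so 1 female pool was low and the other lay between the male pools.

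Cacna2d2 was even between the sexes, at 16.4 and 7.72 CPM against 13.5 and 10.6 CPM (-0.00 ± 0.65, SE). That standard error leaves room for differences in either direction, and the sign changed with the normalization. Cacna2d4 had a log2 difference of 3.33 ± 2.47 (edgeR adjusted p = 0.981) that rested on female cell 29, which held 340 of the 365 female counts, against 25 counts in all male cells. It passed the filter on low counts through that cell.

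**Figure D5:**
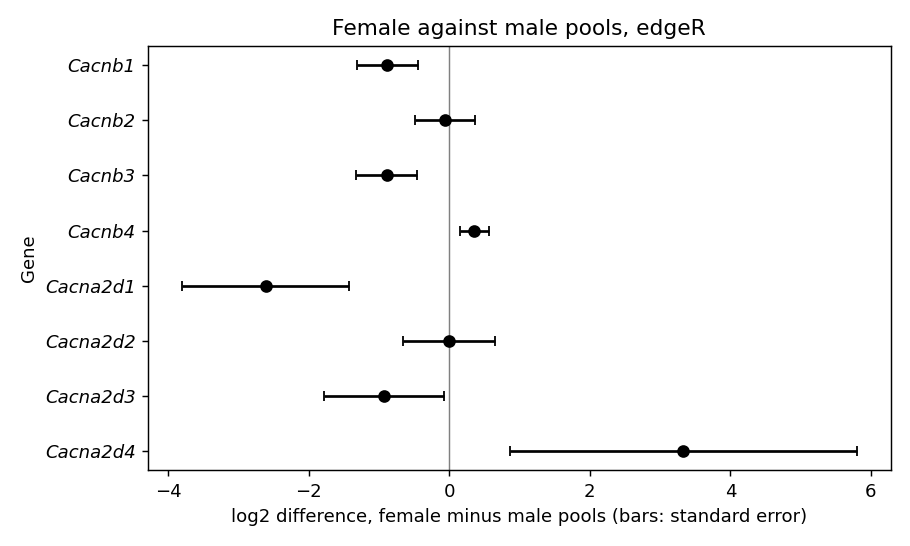
log2 difference of female minus male pools for the 8 genes (horizontal axis), 1 point per gene and 2 pools per sex. Bars are a standard error derived from edgeR's log2 difference and F statistic. The points of Cacnb2 and Cacna2d2 lie near 0, the bars of Cacna2d1 and Cacna2d4 are the widest, and no gene was called.

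Among the other parts of the channel complex, the call of 1 pore gene depended on the fit. Of 8 pore genes tested, 0 were called by edgeR with the filter on low counts, and 6 had a difference below 0 (median -0.18). Cacna1e, the R-type pore gene, had 22.3 and 32.6 CPM (male) against 3.14 and 4.996 CPM (female), a log2 difference of -2.76 ± 0.59 (SE; edgeR adjusted p = 0.866). It was called by DESeq2 (-2.75, adjusted p = 0.000458) and by edgeR with no filter on low counts (-2.75, adjusted p = 0.0114), and in none of its other 19 alternative fits (adjusted p from 0.000458 to 0.9999 over 22 fits). Male cells 15 and 29 held 53.4% of its male counts, and without them the difference was -1.60 ± 1.11 (edgeR adjusted p = 0.9999). Among the gamma subunits and their relatives (6 of 8 tested) 3 differences lay below 0 and 3 above, among 15 regulators (13 tested) 8 below and 5 above, and among 5 alpha2delta ligands (4 tested) all 4 below, with medians of -0.02, -0.17 and -0.85. The most abundant gamma genes and ligands were Cacng2 (median 62.0 CPM over cells) and Cacng3 (46.6 CPM), which act on AMPA receptors, and the ligands Prnp (504 CPM) and Lrp1 (96.3 CPM). None of these partners was called by edgeR.

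Markers of other cell types also differed between the same pools, though not all of them separated the sexes. Slc17a7 had 90.01 and 71.9 CPM (male) against 20.5 and 6.08 CPM (female), and 6 of 8 excitatory markers had a difference below 0 (median -1.53). Oligodendrocyte markers were below 0 in 8 of 8 (median -2.33) and markers of other interneurons in 7 of 8 (median -1.38). Red blood cell markers were above 0 in 5 of 5 (median 2.80) and microglia markers in 8 of 8 (median 1.06). The pools of the sexes did not overlap for 8 of 8 excitatory, 6 of 8 oligodendrocyte and 5 of 5 red blood cell markers. They did not overlap for 3 of 8 markers of other interneurons and 0 of 8 microglia markers, against 33.9% of all genes. The median microglia sum over cells was 277 and 110 CPM (male) against 476 and 166 CPM (female). Without male cells 15 and 29 the difference of Cacnb1 was -0.68, that of Cacnb3 was -0.60 and that of Cacna2d1 was -2.38, none of them called. Without the 14 cells in which Sst was at or above Pvalb these were -1.30, -0.57 and -1.78. The part of these markers in the differences was not tested.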

How the data were processed

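Single PV cells were harvested by patch pipette and sequenced from Nextera XT libraries, per the labels' protocols. STAR, edgeR and the build GRCm38 are named per the submitters' processing notes; versions, counting tool, annotation and strand setting: not given in the sources used here. Per cell and gene, the authors deposited raw counts, and 0 columns lacked a labelled cell. A normalized table by the authors holds a signal, each cell's counts times 1 factor (0.866 to 1.32), and served as an alternative. CPM used the cell's total, and exon lengths came from GENCODE vM21. No 2 cells had identical counts. The labels name no molecular identifiers. Intervals on numbers of cells treat the cells as independent and leave out the spread between animals.

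The counts of Pass cells were added up by sex and age (4 pools), and replicate numbers only name cells. Genes with a count in at least 10 cells that passed filterByExpr were tested with edgeR 4.0.16 (R 4.3.3), with TMM and an adjusted p under 0.05. The standard error (SE) of its log2 differences was derived as their size divided by the square root of the F statistic. Alternatives used DESeq2 1.42.0, limma 3.58.1 (pseudocount 1), other filters and lengths, thinned cells and left-out cells or pools. Leaving out the cell with most counts of a gene, and male cells 15 and 29 or female cell 3 outside the sex comparison, was added after seeing the data. The fit was tested on simulated data. Named genes were the 8 members, the 10 pore genes, the 2 most abundant genes of each of 3 partner lists (a few items are not reported here), 7 identity genes and the 3 genes most like each member with a median of at least 10 CPM. Cells named with a gene's extremes were picked out once the values had been seen. The members and lists were chosen with earlier results of these data known.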

Additional observations from a re-analysis of the deposited data

Results flagged for a closer look

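The 4 cells with the quality label Fail were outside every comparison, and auxiliary subunit counts above 3, the limit that a count of 0 allows, were found in each of them. Cacnb4 had 116 counts in male cell 3, 87 in male cell 4, 19 in female cell 6 and 602 in female cell 10. Cacnb2 had 41, 31, 18 and 43 counts in the same order. Cacnb1 had 7 in male cell 3, 18 in female cell 6 and 40 in female cell 10, and Cacnb3 had 12, 5 and 29 in male cells 3 and 4 and female cell 6. Cacna2d2 had 21, 11, 62 and 27 counts in the order of Cacnb4. Cacna2d3 had 10 and 65 in male cells 3 and 4, and Cacna2d1 had 4 in female cell 10. These cells held 0.836, 0.596, 0.545 and 5.08 M counts. All of these levels lay within the range of the Pass cells except Cacna2d2 in female cell 6, at 114 CPM against a highest Pass level of 72.4 CPM.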

How the results depend on the processing

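No auxiliary gene was called in any of 22 fits of the female and male pools, of which only 13 covered Cacna2d4. The genes called over all numbered 2, and 111 with no filter on low counts, 186 with DESeq2 and 0 to 23 when 1 pool was left out, where the lone pool of a sex is assumed to vary like the others. Cacna2d2 changed sign, to 0.0066 with RLE factors or DESeq2, 0.0088 with no filter, 0.015 with thinned cells, 0.19 without female cell 3, and -0.45 to 0.64 without 1 pool (0.17 without female P42). Cacnb2 ran from -0.62 to 0.35 without 1 pool (0.27 without male P35). In the order per length, Cacnb1 over Cacnb2 turned to -0.28 (longest transcript) and -1.12 (mean coding length), and Cacnb3 over Cacnb1 to -0.059 (mean coding length) and -0.34 (median over cells). The mean coding length also moved the Cacnb4 share to 38.1% and its leading cells to 55.6%. Deposited normalized values moved rho of Cacnb4 with Cacna1a to 0.459. The other 6 members kept their sign wherever they were tested. Without 1 pool, the Cacna2d3 share ran from 57.5% to 76.9%. Of the pore genes, Cacna1e was called with DESeq2 and with no filter on low counts. Leaving out male cells 15 and 29 or female cell 3, added after seeing the data outside the sex comparison, turned no ratio of the order and no rho. The causes were not tested. No paired analysis was possible because the labels give the pools no shared replicate numbers. The values of Cacna2d1 and Cacna2d4 rest on pool sums down to 50 and 1 counts, in a pool of 123 M counts.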
